A study of Homo sapiens with 9 samples.

Results

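The genes described here are the outputs and brakes of ERK signalling in PANC-1 cells treated with TVB-3166, a small-molecule inhibitor of fatty acid synthase, the enzyme that makes palmitate. There were 10 members, namely DUSP4, DUSP5, DUSP6, SPRY2, SPRY4, SPRED1, SPRED2, ETV4, ETV5 and PHLDA1, of 19775 genes named on the array. They were taken with every probe set annotated to exactly 1 gene when that gene was a member, which gave 28 of the 54675 probe sets. PANC-1 is a human pancreatic ductal adenocarcinoma line, used in all groups. Cells were held for 72 hours in medium with charcoal-filtered serum containing DMSO alone, 0.1 µM TVB-3166 or 1.0 µM TVB-3166, and each condition had 3 Affymetrix HG-U133 Plus 2.0 arrays. The submitters describe triplicate treatments of 1 line without saying that replicates were separate cultures, so p-values measure the spread between these arrays, which may be technical.

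ERK is the last kinase of a relay that runs from growth factor receptors through RAS, RAF and MEK, and this relay is commonly active in pancreatic tumours. Active ERK induces genes that restrain it in turn: dual-specificity phosphatases (DUSPs) remove the activating phosphates from ERK, and Sprouty (SPRY) and SPRED proteins act higher up, on the receptors and on RAS and RAF. It also induces transcription factors of the PEA3 group of the ETS family, ETV4 and ETV5. Transcript levels of these genes are widely used as a readout of ERK activity; the activity of the kinase itself was not measured in the values used here.

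Promoters, the 300 bases from 250 before to 50 after the annotated start, were taken from RefSeq on GRCh38.p14 for 6 of the 10 members, 9 start sites in all; those of DUSP4, DUSP5, ETV4 and ETV5 were not analysed here. DUSP6, SPRY2 and SPRY4 are shown because they were called higher at both doses and because ETS factors, which bind a GGAA core, are among the factors through which ERK acts on promoters. Capitals mark the ETS letters searched, CCGGAA.
DUSP6 promoter, chr12:89352452-89352751, minus strand: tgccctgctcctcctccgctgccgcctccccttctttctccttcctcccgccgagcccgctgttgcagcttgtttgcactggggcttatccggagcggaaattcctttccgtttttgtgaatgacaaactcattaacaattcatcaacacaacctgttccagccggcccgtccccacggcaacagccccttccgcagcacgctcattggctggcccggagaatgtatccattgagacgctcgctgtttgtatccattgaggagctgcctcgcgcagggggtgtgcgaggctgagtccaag
SPRY2 promoter, chr13:80341077-80341376, minus strand: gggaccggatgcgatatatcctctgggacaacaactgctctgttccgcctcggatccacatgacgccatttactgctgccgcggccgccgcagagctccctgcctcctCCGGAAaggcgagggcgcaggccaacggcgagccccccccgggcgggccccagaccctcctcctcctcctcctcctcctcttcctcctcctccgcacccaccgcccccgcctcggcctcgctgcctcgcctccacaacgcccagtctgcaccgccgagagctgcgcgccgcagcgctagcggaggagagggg
SPRY4 promoter, chr5:142324198-142324497, minus strand: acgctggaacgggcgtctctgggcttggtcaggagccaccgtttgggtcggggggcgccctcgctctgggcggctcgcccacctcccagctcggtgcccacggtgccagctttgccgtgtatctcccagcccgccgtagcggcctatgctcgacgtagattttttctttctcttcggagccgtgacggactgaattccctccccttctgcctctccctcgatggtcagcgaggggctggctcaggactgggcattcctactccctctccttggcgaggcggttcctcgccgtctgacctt

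Both strands were searched for CCGGAA (ETS), TGANTCA (AP-1), TGACGT (the core of a CRE) and the CArG box, none of which overlapped in the matches found. Among the called members a single match was found, CCGGAA in the first of 3 SPRY2 promoters, at −142 to −137 from the start. These letters occurred in 17.25% of all 35116 promoters of that length and in 25.1% of the 16184 promoters of tested genes. PHLDA1 held CCGGAA on the opposite strand at −89 to −84, and SPRED2 held 2 AP-1 matches in 1 promoter and a CRE core in the other. AP-1, CRE core and CArG matches were found in 7.71%, 7.98% and 1.29% of all promoters. Among promoters of tested genes the shares were 5.42%, 9.92% and 1.15%. The promoters of DUSP6 and SPRY4 printed above held none of these letters. The shorter GGAA core alone was not searched, and it stands in lower case in both. No match was counted as a binding site.

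Values are MAS5 signals on a linear scale, and changes are differences of log2(signal + 16) ± standard error from limma (3 arrays per group), whose Benjamini-Hochberg adjusted p over all 13948 tested genes decided a call at under 0.05. The added 16 makes changes of dim genes smaller than the ratio of their signals. Each gene was read from its brightest probe set (mean of 9 arrays), provided this lay above the 40th percentile of mean level. Of the 10 members 9 were tested. DUSP4 was not, because all 3 of its probe sets fell below that filter, with signals between 1.2 and 19.9 over the 9 arrays, so no change of this phosphatase gene can be read from them. Hybridisation spike probe sets parted the arrays, across all groups, into a lower set of 5 and a higher set of 4, and fits within the lower set or with the set as a block are quoted where they alter a call. The lower set holds a single 0.1 µM array. In bulk RNA a changed level per cell and a changed share of expressing cells cannot be told apart.

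At 1.0 µM against DMSO 6 of the 9 tested members rose, 0 fell and 3 were not called. The background was 23.2% of genes called, 12.3% higher and 11% lower. The phosphatase genes DUSP5 and DUSP6, the Sprouty genes SPRY2 and SPRY4 and the ETS factor genes ETV4 and ETV5 were the 6 that rose, by 0.84 to 1.46 on the log2 scale. The median change of the tested members was 1.18, against 0.01 over all tested genes. At 0.1 µM against DMSO 5 of the 9 rose and 0 fell, ETV4 no longer being called, where 6.89% of genes were called higher and 5.11% lower. Their median change at that dose was 0.61, against −0.01 over all genes. Both comparisons use the same DMSO arrays.

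**Figure D1:**
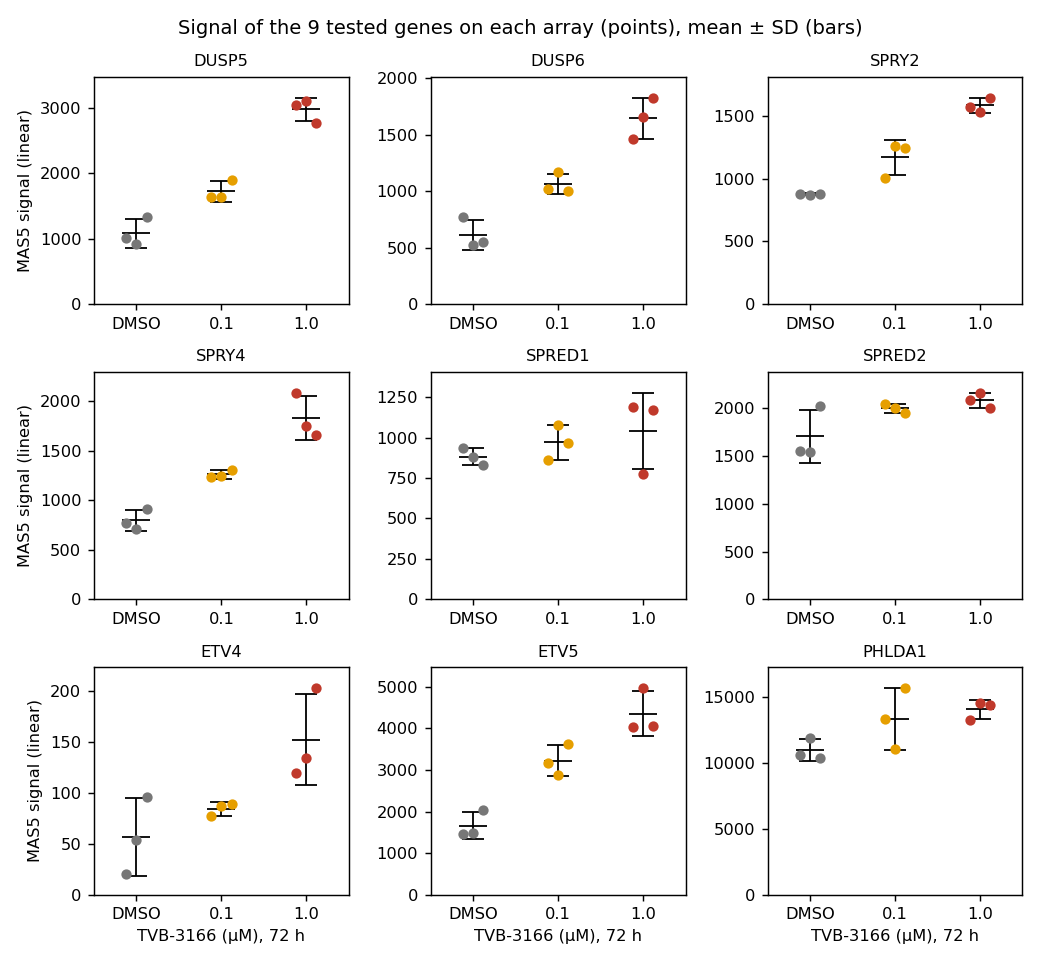
MAS5 signal (linear scale, from 0) of the 9 tested genes on each array, by TVB-3166 dose in µM; points are arrays and bars the mean ± SD of 3. DUSP5, DUSP6, SPRY2, SPRY4 and ETV5 form 3 separate steps, whereas the groups of SPRED1 and SPRED2 overlap.

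DUSP5 (Entrez gene 1847, chromosome 10, 110497907 to 110511533 on GRCh38.p14) encodes a nuclear phosphatase that acts on ERK. Its signal was 1005, 914 and 1334 in DMSO, 1634, 1631 and 1900 at 0.1 µM and 3048, 3108 and 2771 at 1.0 µM. The 3 groups did not overlap and were ordered by dose. The change was 1.46 ± 0.13 at 1.0 µM (limma adjusted p = 1.01e-05) and 0.67 ± 0.13 at 0.1 µM (adjusted p = 0.00548), both against DMSO. Within the lower spike set the 0.1 µM change was 0.49 and not called (adjusted p = 0.243). DUSP5 was also the 1 member called between the doses, at 0.79 ± 0.13 for 1.0 µM against 0.1 µM (adjusted p = 0.0218), where 0.817% of genes were called, 0.387% higher and 0.43% lower. That call ended with the replicate number as a block (adjusted p = 0.0584), with median centring (0.0637) and without the variance trend (0.0835). It also ended without 0.1 µM replicate 1 (0.128) or 2 (0.0756) or 1.0 µM replicate 1 (0.0991) or 3 (0.0840). Within the lower spike set, with its single 0.1 µM array, the difference was 0.83 and not called. Over all genes 54 were called higher between the doses as reported. The count was 11 with the block, 11 with median centring and 10 without the trend. Without those arrays, in the same order, it was 9, 15, 13 and 4.

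DUSP6 (Entrez gene 1848, chromosome 12, 89347235 to 89352501) encodes a cytoplasmic phosphatase with a strong preference for ERK, and its promoter is the first printed above. The signal was 767, 526 and 551 in DMSO, 1022, 1166 and 999 at 0.1 µM and 1459, 1653 and 1824 at 1.0 µM, again in 3 groups without overlap. It rose by 1.41 ± 0.14 at 1.0 µM (adjusted p = 2.40e-05) and by 0.79 ± 0.14 at 0.1 µM (adjusted p = 0.00343), the second of which was not called within the lower spike set (0.83, adjusted p = 0.127). All 3 DUSP6 probe sets were called higher at both doses, with changes of 1.22 to 1.45 at 1.0 µM and 0.69 to 0.81 at 0.1 µM. Between the doses the difference of 0.62 ± 0.14 missed the threshold (adjusted p = 0.0728; 95% interval 0.31 to 0.93). With array weights (adjusted p = 0.00339), the mean of its probe sets (0.0194) or without DMSO replicate 1 (0.0378) it passed. Array weights called 970 of 13948 tested genes higher between the doses, against 54 without them. The array-weight results between doses of SPRY4, SPRY2 and ETV4 below are to be read against the same counts.

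SPRY4 (Entrez gene 81848, chromosome 5, 142310430 to 142325021) encodes a Sprouty protein, which dampens signalling between receptor tyrosine kinases and RAF. Signals of 770, 710 and 918 in DMSO were followed by 1232, 1246 and 1311 at 0.1 µM and 2088, 1749 and 1661 at 1.0 µM. These steps did not overlap. SPRY4 rose by 1.18 ± 0.12 at 1.0 µM (adjusted p = 1.98e-05) and by 0.66 ± 0.12 at 0.1 µM (adjusted p = 0.00312). The 0.1 µM change was not called within the lower spike set (0.56, adjusted p = 0.198). The difference between doses was 0.53 ± 0.12 (adjusted p = 0.0645; 95% interval 0.27 to 0.78), and it passed with array weights (0.0112) or without DMSO replicate 3 (0.0409).

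SPRY2 (Entrez gene 10253, chromosome 13, 80335976 to 80341126), its close relative, read 883, 869 and 882 in DMSO. At 0.1 µM the signals were 1007, 1263 and 1244, and at 1.0 µM they were 1573, 1536 and 1649. The order by dose was again complete. The rise was 0.84 ± 0.10 at 1.0 µM (adjusted p = 9.14e-05) and 0.40 ± 0.10 at 0.1 µM (adjusted p = 0.0229). The smaller of these was not called with the replicate block (adjusted p = 0.0526), with median centring (0.0515) or without the variance trend (0.0507). Nor was it called without DMSO replicate 1 (0.0610) or 2 (0.0631) or 0.1 µM replicate 2 (0.0756) or 3 (0.113). Within the lower spike set, with its single 0.1 µM array, it was 0.51 and not called. Over all genes 961 were called higher at 0.1 µM as reported. The count was 670 with the block, 822 with median centring and 781 without the trend. Without those arrays, in the same order, it was 673, 775, 825 and 537. Between the doses SPRY2 differed by 0.44 ± 0.10 (adjusted p = 0.0736), which passed with array weights (0.00452). SPRY2 and SPRY4 have 1 probe set each, so neither could be compared with a second one.

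SPRED1 and SPRED2, which bind neurofibromin and keep RAS from activating RAF, were not called at either dose. SPRED1 (Entrez gene 161742, chromosome 15, 38252836 to 38357249) had signals of 937, 877 and 832 in DMSO, 864, 1076 and 968 at 0.1 µM and 1187, 773 and 1168 at 1.0 µM. One array, 1.0 µM replicate 2, lay below all DMSO arrays while the other two of its group lay above them. The change at 1.0 µM was 0.21 ± 0.15 (adjusted p = 0.373; 95% interval −0.12 to 0.55), and without that array it was 0.41 (adjusted p = 0.0219). It was also called with array weights (0.35, adjusted p = 0.0302). Array weights called 2423 of 13948 tested genes higher at 1.0 µM against DMSO, against 1711 without them. The array-weight results of SPRED2 and PHLDA1 at 1.0 µM below are to be read against the same counts. The 3 SPRED1 probe sets ran from −0.12 to 0.21 at 1.0 µM and from −0.35 to 0.19 at 0.1 µM, none of them called.

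SPRED2 (Entrez gene 200734, chromosome 2, 65307175 to 65432599) had 1556, 1543 and 2027 in DMSO, 2048, 2001 and 1956 at 0.1 µM and 2084, 2164 and 2004 at 1.0 µM. DMSO replicate 3 reached the level of the treated arrays. The change was 0.30 ± 0.11 at 1.0 µM (adjusted p = 0.0691; 95% interval 0.06 to 0.53) and 0.24 ± 0.11 at 0.1 µM (adjusted p = 0.191; 95% interval 0.00 to 0.47). Without DMSO replicate 3 SPRED2 was called at both doses, at 0.42 (adjusted p = 0.00522) and 0.37 (0.0201). At 1.0 µM array weights (0.0157) and the spike set as a block (0.0489) also gave a call. That block called 2249 of all tested genes higher at 1.0 µM, against 1711 without it. The result of PHLDA1 with the block below is to be read against the same counts. Of its 3 probe sets 1 was below the filter, with a signal of 11.7 or less on every array.

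ETV5 (Entrez gene 2119, chromosome 3, 186046314 to 186109089) is a PEA3 factor of the ETS family. Signals were 1449, 1483 and 2031 in DMSO, 3162, 2889 and 3634 at 0.1 µM and 4026, 4974 and 4053 at 1.0 µM. The groups were ordered by dose and did not overlap. It rose by 1.40 ± 0.14 at 1.0 µM (adjusted p = 2.51e-05) and by 0.97 ± 0.14 at 0.1 µM (adjusted p = 8.30e-04), where the call was lost within the lower spike set (0.75, adjusted p = 0.112). All 5 ETV5 probe sets had positive changes at 1.0 µM, 0.56 to 1.46, and 4 of them were called; at 0.1 µM 3 were called. The difference between doses, 0.43 ± 0.14, missed the threshold (adjusted p = 0.236; 95% interval 0.12 to 0.74).

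ETV4 (Entrez gene 2118, chromosome 17, 43527846 to 43546340), the second PEA3 factor among the members, was dim and scattered. Its signal was 20.1, 53.8 and 96.4 in DMSO, 76.9, 87.3 and 89.1 at 0.1 µM and 119.7, 134.7 and 203.4 at 1.0 µM. The 1.0 µM arrays lay above all others, while the 0.1 µM arrays lay within the range of DMSO. ETV4 rose by 1.33 ± 0.36 at 1.0 µM (adjusted p = 0.0178); at 0.1 µM the change was 0.61 ± 0.36 (adjusted p = 0.322; 95% interval −0.16 to 1.39). The call at 1.0 µM was lost without DMSO replicate 1 (0.90, adjusted p = 0.0516), without 1.0 µM replicate 3 (1.12, 0.0809) and in the lower spike set (1.44, 0.0982). Between the doses ETV4 differed by 0.72 ± 0.36 (adjusted p = 0.444), called with array weights (0.93, adjusted p = 0.0497). A second ETV4 probe set lay below the filter, with mean signals of 43.1 in DMSO, 31.03 at 0.1 µM and 43.8 at 1.0 µM.

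**Figure D2:**
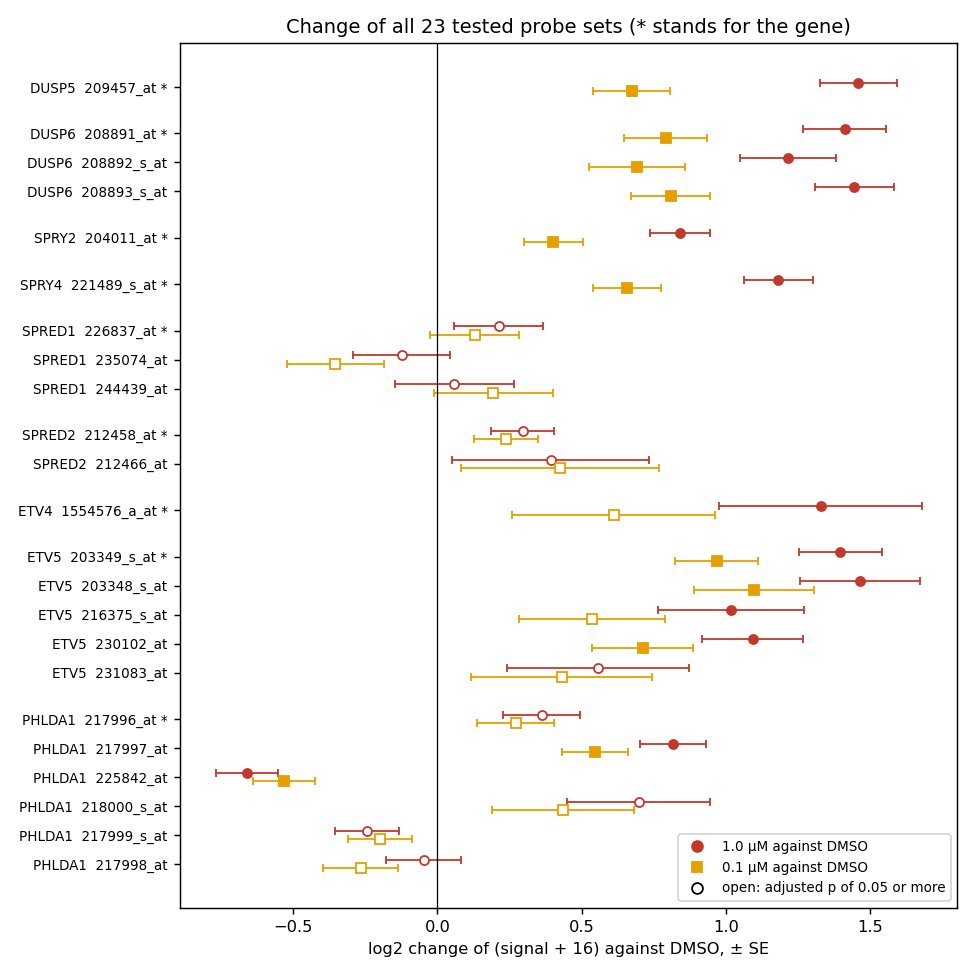
Change of log2(signal + 16) against DMSO (horizontal axis, ± SE) for all 23 tested probe sets, grouped by gene, with 1.0 µM as circles and 0.1 µM as squares; filled marks have an adjusted p under 0.05. The probe sets of DUSP6 and ETV5 lie to the right of 0 at both doses, and those of PHLDA1 lie on both sides.

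PHLDA1 (Entrez gene 22822, chromosome 12, 76025447 to 76031776) encodes a pleckstrin-homology-like protein and is known to be induced by growth factors through ERK. Its representative probe set read 10569, 11893 and 10396 in DMSO, 13326, 11014 and 15674 at 0.1 µM and 13248, 14546 and 14410 at 1.0 µM. The 1.0 µM arrays lay above DMSO, but the change of 0.36 ± 0.13 missed the threshold (adjusted p = 0.0667; 95% interval 0.08 to 0.65). It was called with quantile normalization (0.40, adjusted p = 0.00441), array weights (0.37, 0.0234), the spike set as a block (0.36, 0.00688), in the lower spike set (0.40, 0.0169), with only the 6 arrays compared (0.36, 0.0426) and without 0.1 µM replicate 2 (0.36, 0.0296). At 0.1 µM the change was 0.27 ± 0.13 (adjusted p = 0.225).

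The 6 PHLDA1 probe sets did not move together. Probe set 217997_at read 3618, 3494 and 2907 in DMSO, 4707, 4456 and 5490 at 0.1 µM and 6071, 5567 and 5973 at 1.0 µM. It rose by 0.82 ± 0.11 at 1.0 µM (adjusted p = 3.98e-04 over all 32768 tested probe sets) and by 0.55 ± 0.11 at 0.1 µM (adjusted p = 0.0112). Probe set 225842_at went the opposite way, with 4137, 4005 and 5056 in DMSO, 3102, 3144 and 2834 at 0.1 µM and 2586, 2812 and 2892 at 1.0 µM. It fell by 0.66 ± 0.11 at 1.0 µM (adjusted p = 0.00118) and by 0.53 ± 0.11 at 0.1 µM (adjusted p = 0.00950). In neither probe set did the arrays of a dose overlap with DMSO. The other 4 were not called, with changes from −0.24 to 0.70 at 1.0 µM. No single direction can therefore be given for PHLDA1, and which transcript ends these probe sets read was not analysed here.

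**Figure D3:**
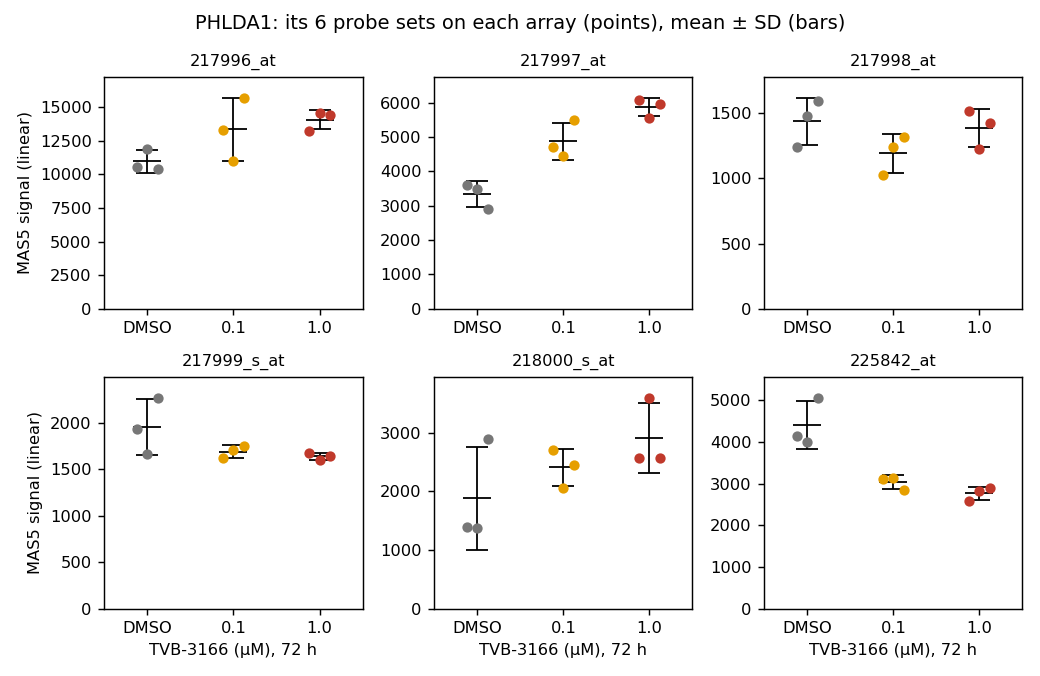
MAS5 signal (linear scale, from 0) of the 6 PHLDA1 probe sets on each array, by TVB-3166 dose in µM, with the mean ± SD of 3 arrays. Probe set 217997_at is highest at 1.0 µM and 225842_at is highest in DMSO.

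Counted by probe set, 23 of the 28 passed the filter. At 1.0 µM against DMSO 12 of the 23 were called higher and 1 lower, with a background of 8.94% and 8.68% of all tested probe sets. At 0.1 µM 10 were called higher and 1 lower, with a background of 4.59% and 3.66%. Without 0.1 µM replicate 3 the count of probe sets called higher at 0.1 µM was 5. Over all tested genes 537 of 13939 were called higher without that array, against 961 of 13948 with it. Between the doses 1 was called higher, that of DUSP5, and 0 lower, against 0.122% and 0.159%. Probe sets of 1 gene share its transcripts and are not independent.

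Of the 9 tested members, 5 (DUSP5, DUSP6, SPRY2, SPRY4 and ETV5) had all DMSO arrays below all 0.1 µM arrays and all of these below all 1.0 µM arrays, an order held by 3.63% of tested genes. Counted by comparison, all arrays of the higher dose lay above those of the lower one for 7 members at 1.0 µM against DMSO (19.2% of genes), 5 at 0.1 µM against DMSO (15.5%) and 6 at 1.0 µM against 0.1 µM (9.73%). The opposite separation was seen for 0 members, against 18%, 14.6% and 8.73% of genes. The changes between doses of the 9 ran from 0.06 to 0.79 with a median of 0.44, against 0.01 over all genes. Over the 9 arrays the 15 pairs among the 6 called members had Pearson r of 0.672 to 0.983, a description of arrays that share 3 doses. Deviations from the group means of the same pairs had a median r of 0.187 and ran from −0.463 to 0.874.

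DMSO replicate 3 and 0.1 µM replicate 3 were each the highest of their group for 5 of the 9 members, and DMSO replicate 2 was the lowest of its group for 5. Without DMSO replicate 3, 7 members were called higher at 1.0 µM and 6 at 0.1 µM, beside 1496 and 818 of 13977 tested genes. The mean log2 level of the 9 spike probe sets ran from 11.23 to 12.13 over the arrays. Within the lower set the 6 called members differed by 0.86 to 1.44 for 1.0 µM against DMSO (2 arrays each), and within the higher set by 0.81 to 1.75 (1 array each). For 0.1 µM against DMSO these were 0.49 to 0.83 and 0.36 to 1.18, with 1 array at 0.1 µM in the lower set and 1 DMSO array in the higher set.

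All 6 epithelial markers examined lay above the filter, and 4 of them were called at 1 dose or both. KRT7 was called higher, by 1.06 ± 0.12 at 1.0 µM (adjusted p = 4.3e-05) and 1.11 ± 0.12 at 0.1 µM (adjusted p = 7.5e-05). KRT8 (10073 to 22644 on the 9 arrays) and KRT19 (9384 to 23609) were called lower at 1.0 µM, at −0.86 ± 0.15 (adjusted p = 0.00165) and −0.90 ± 0.17 (adjusted p = 0.00258). CDH1 was called lower at 0.1 µM (−0.59 ± 0.14, adjusted p = 0.0145) and had −0.35 ± 0.14 at 1.0 µM (adjusted p = 0.0846), while KRT18 and EPCAM were not called at either dose. Of the 4 mesenchymal markers, VIM (14343 to 25195) among them, limma called 0 at either dose against DMSO, and 1 had an unadjusted p under 0.05 at each dose. Of the 16 annotated markers of blood, endothelial, fibroblast, acinar, endocrine and prostate cells, 7 lay above the filter. These were CD3E (22.5 to 130.9), MS4A1 (14.6 to 90.1), PECAM1 (159 to 224), DCN (63.0 to 151.4), CELA3A (25.7 to 102.0), KLK3 (311 to 536) and TMPRSS2 (383 to 1195), whereas the leukocyte marker PTPRC did not exceed 39.7. Of the 7, TMPRSS2 was called lower, at −1.39 ± 0.11 for 1.0 µM and −0.64 ± 0.11 for 0.1 µM, and the other 6 were not called. The part of these marker changes in the members' results was not tested.

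A further list of 20 feedback genes, most but not all of them negative regulators, included phosphatases that act mainly on p38 and JNK. Of the 20 genes 19 were tested. Of the 19, 4 rose and 1 fell at 1.0 µM and 3 rose and 1 fell at 0.1 µM, the 3 being phosphatases of JNK and p38. Medians of the 19 were 0.10 and −0.01, close to those of all genes. Over all tested genes 12.3% were called higher and 11% lower at 1.0 µM, and 6.89% and 5.11% at 0.1 µM; 23.2% and 12% were called in all, and the 5 of 19 and 4 of 19 here, like the counts of the lists that follow, are to be read against these shares. DUSP1, an inducible nuclear phosphatase that acts mainly on p38 and JNK, had mean signals of 4077 in DMSO, 4557 at 0.1 µM and 7286 at 1.0 µM. It rose by 0.83 ± 0.09 at 1.0 µM (adjusted p = 2.91e-05), and the change at 0.1 µM was 0.16 ± 0.09 (adjusted p = 0.287). DUSP8 and DUSP16, phosphatases of JNK and p38, rose at both doses, by 0.77 ± 0.20 and 0.57 ± 0.13 at 1.0 µM and by 0.80 ± 0.20 and 0.60 ± 0.13 at 0.1 µM. DUSP10, of the same kind, rose at 0.1 µM (0.79 ± 0.18, adjusted p = 0.0137) and had 0.52 ± 0.18 at 1.0 µM (adjusted p = 0.0554). DUSP2, a nuclear phosphatase best known from immune cells, fell by 1.05 ± 0.21 at 1.0 µM (adjusted p = 0.00340) and by 0.83 ± 0.21 at 0.1 µM (adjusted p = 0.0232). SPRY1, a further Sprouty gene, had 0.03 ± 0.10 at 1.0 µM (adjusted p = 0.874). SPRY3, which was dim, had −0.12 ± 0.31 at 1.0 µM (adjusted p = 0.842) and −0.62 ± 0.31 at 0.1 µM (adjusted p = 0.239). Both were chosen after their values were seen.

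Of 22 other genes known to be induced through ERK, 18 were tested, with 9 rises and 1 fall at 1.0 µM and 7 rises and 0 falls at 0.1 µM, beside 12.3% and 11% of all genes at 1.0 µM and 6.89% and 5.11% at 0.1 µM. The medians were 0.46 and 0.32. HBEGF, an EGF receptor ligand, had mean signals of 314 in DMSO, 909 at 0.1 µM and 1528 at 1.0 µM, a rise of 2.23 ± 0.10 at 1.0 µM (adjusted p = 6.41e-08) and of 1.48 ± 0.10 at 0.1 µM (3.22e-06). MAFF, a small Maf transcription factor, rose by 2.56 ± 0.12 and LIF, a secreted cytokine, by 1.35 ± 0.10 at 1.0 µM. CCND1, the cyclin D1 gene and a classical ERK output, fell by 0.34 ± 0.09 at 1.0 µM (adjusted p = 0.0130), with mean signals of 1071 at 1.0 µM and 1365 in DMSO. Within this list the ERK outputs thus did not all move one way. ETV1, a further PEA3 factor chosen after its values were seen, had 0.25 ± 0.22 at 1.0 µM (adjusted p = 0.470). At 0.1 µM ETV1 had 0.02 ± 0.22 (adjusted p = 0.973).

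Of 23 genes of the cascade itself, from receptors to ERK, 18 were tested, with 2 rises and 1 fall at 1.0 µM, beside 12.3% and 11% of all genes. At 0.1 µM limma called 0 of the 18, of which 6 had an unadjusted p under 0.05, and 12% of all tested genes were called at that dose. EGFR, the EGF receptor, rose by 0.53 ± 0.14 at 1.0 µM (adjusted p = 0.0161) and MAP2K1, which encodes the kinase MEK1, by 0.56 ± 0.13 (adjusted p = 0.00691). ERBB2, a receptor of the same family, fell by 0.69 ± 0.13 (adjusted p = 0.00185), with mean signals of 615 at 1.0 µM and 1006 in DMSO. Of 15 JNK and p38 pathway kinases 12 were tested, with 2 rises and 1 fall at 1.0 µM and 1 of each at 0.1 µM, where 23.2% and 12% of all genes were called in either direction. MAP3K5, the stress kinase ASK1, rose by 0.99 ± 0.13 and MAP2K6, an activator of p38, by 0.68 ± 0.12 at 1.0 µM, while MAP3K4 fell by 0.57 ± 0.15.

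Other ETS factors moved in both directions. Of 20 genes 16 were tested, and 3 rose and 3 fell at 1.0 µM, with 0 rises and 1 fall at 0.1 µM. The shares over all genes were 12.3% higher and 11% lower at 1.0 µM, and 6.89% and 5.11% at 0.1 µM. ETS1 rose by 0.98 ± 0.18 at 1.0 µM (adjusted p = 0.00169), with mean signals of 5002 at 1.0 µM and 2488 in DMSO. ETS2 fell by 0.95 ± 0.09 at 1.0 µM (adjusted p = 1.26e-05) and by 0.69 ± 0.09 at 0.1 µM (adjusted p = 3.22e-04). The epithelial factors ELF3 and SPDEF fell by 1.08 ± 0.15 and 0.62 ± 0.20 at 1.0 µM, and ELF4 and ELF1 rose by 0.39 ± 0.11 and 0.35 ± 0.11.

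**Figure D4:**
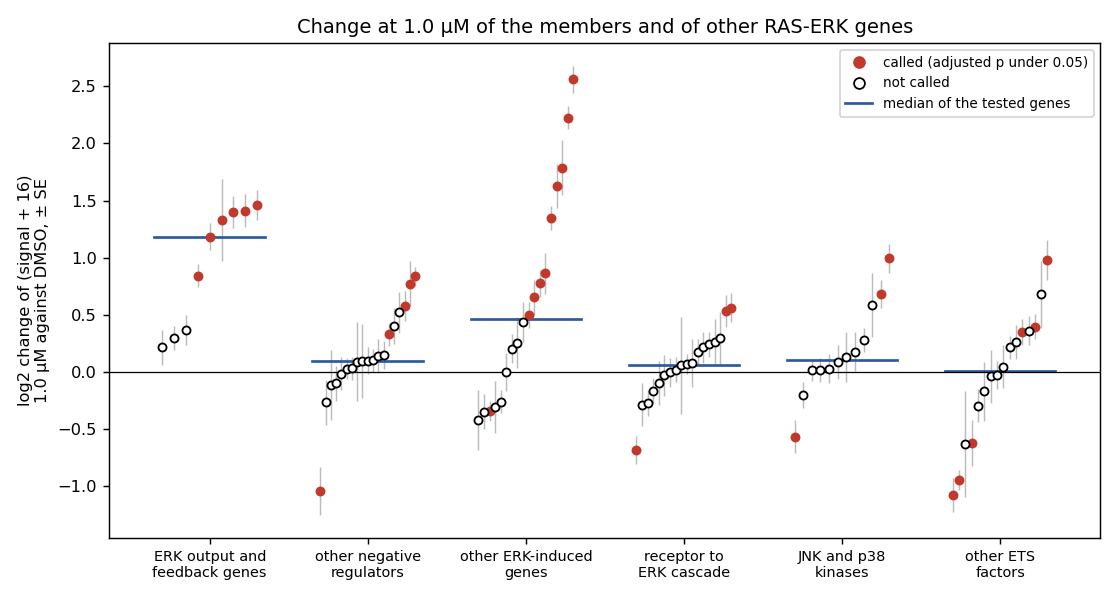
Change of log2(signal + 16) for 1.0 µM against DMSO (vertical axis, ± SE) of the 9 tested members and the tested genes of 5 other lists; filled points were called and blue lines are medians. The median is 1.18 for the members, 0.46 for other ERK-induced genes and between 0.01 and 0.11 for the remaining lists.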

How the data were processed

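RNA of 9 PANC-1 samples was hybridised to Affymetrix HG-U133 Plus 2.0 arrays. The authors deposited 1 linear intensity for each probe set, which the submitters' processing notes tie to MAS5 without a version. Every deposited array had a mean, trimmed by 2% at each end, of 500.1. Samples were grouped by title: for the 3 samples titled 1.0 µM the treatment field reads 0.1 µM, and the description of 0.1 µM replicate 1 reads DMSO. DMSO is given as 0.05% in the source names, while descriptions differ.

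Values became log2(signal + 16) with no further normalization. After removal of 62 control probe sets, 32768 of 54613 lay above the 40th percentile (signal about 38.95). Symbols came from GEO's platform annotation, updated through Entrez identifiers to RefSeq on GRCh38.p14 (41043 of 41097 probe sets with 1 symbol matched; 1801 had several and 11777 none). The 3 groups were fitted in 1 model with limma 3.58.1 (lmFit, eBayes with trend; two-sided; 6 residual and 5.93 prior degrees of freedom) in R 4.3.3, over genes and again over probe sets. The procedure was tested on simulated data. The number of arrays limits the precision. Arrays of a group correlated at 0.981 to 0.9899 across genes, which are not independent replicates.

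Members, lists, tests and alternatives were chosen with earlier results of these data known. Named genes were all members and, per list and dose, up to 3 called genes with the smallest p in each direction. The 5 genes most like the members over the arrays were also named. SPRY1, SPRY3 and ETV1 are marked as chosen after their values were seen. Markers are named as a check of the cells, outside that rule: all above the filter from other cell types, all epithelial ones, VIM and PTPRC. The replicate numbers were not shown to pair arrays (correlations of deviations −0.338 to 0.217 over 9 same-numbered pairs). Promoter sequences were taken from RefSeq, GRCh38.p14; DUSP4, DUSP5, ETV4 and ETV5 were not analysed there.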

Additional observations from a re-analysis of the deposited data

How the results depend on the processing

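Of the members, 6 were called higher for 1.0 µM against DMSO, and 5 to 9 under all alternatives. Leaving out 1 array at a time gave 5 to 7. The 9 came with array weights, which called 2423 of all genes higher, against 1711 as reported. For 0.1 µM against DMSO the 5 members called higher became 4 to 6 with an array left out, where the 961 of all genes became 537 to 1118. Their calls were lost within the lower spike set, which holds a single 0.1 µM array. Fewer of all genes were called higher in that set as well. There the 6 members called at 1.0 µM differed from DMSO by 0.49 to 0.83 at 0.1 µM. At 0.1 µM the 10 probe sets called higher became 5 to 10 with an array left out. The 1 called lower became 0 with a 1.5-fold minimum or median centring, and 0 to 1 with an array left out. Both kinds of call were lost in the lower spike set. For 1.0 µM against 0.1 µM the 1 member called became 0 with median centring, no variance trend or the replicate block. It became 5 with array weights, 2 with probe sets averaged per gene, and 0 to 2 with an array left out. Over all genes the 54 called higher became 11 with median centring, 10 with no variance trend and 11 with the replicate block. They became 970 with array weights, 62 with probe sets averaged and 4 to 81 with an array left out. The DUSP5 call was also lost in the lower spike set, where calls over all genes were lost too. The count of 1 probe set called between the doses became 0 with no filter, median centring, no variance trend or the replicate block. It became 6 with array weights, 2 with the spike set as a block and 0 to 1 with an array left out. The lower spike set lost this call as well. Counts over all probe sets under these settings are not reported here.

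In the 5 other lists together, the 20 genes called higher at 1.0 µM against DMSO became 13 with a 1.5-fold minimum. Over all genes the 1711 called higher became 990 with that minimum. At 0.1 µM the 11 called higher became 3 in the lower spike set and 5 to 14 with an array left out, and the 3 called lower became 0 in that set. Between doses the 4 called higher became 11 with array weights, 1 with the mean of probe sets and 1 to 5 with an array left out. Over all genes the 54 called higher became 970, 62 and 4 to 81 in these settings. In the lower spike set fewer were called higher, in the lists and over all genes. The 0 called lower became 1 with quantile normalization, 4 with array weights, 1 with the spike set as a block and 1 with the mean of probe sets. Over all genes the 60 called lower became 91, 983, 135 and 68 in that order.

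Uncalled changes that turned sign were those of SPRED1 for 0.1 µM against DMSO (−0.010 with probe sets averaged), SPRED1 between doses (−0.011 with the spike set as a block, and −0.023 to 0.28 with an array left out) and PHLDA1 between doses (−0.040 to 0.21 with an array left out). The lower spike set holds 5 arrays, so its fit has fewer samples; otherwise the cause was not tested. The replicate block, whose numbers were not shown to pair arrays, left 6 members called at 1.0 µM and 4 at 0.1 µM. Over all genes the count called higher was 990 to 2423 at 1.0 µM and 226 to 1303 at 0.1 µM under the alternatives, against 1711 and 961. Between the doses array weights called 970 genes higher and 983 lower, against 54 and 60 as reported. The members called between doses under that setting are to be read against these counts. Dim probe sets, such as those of ETV4 and DUSP4, limit what can be read.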

Other observations

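The 5 tested genes outside the members that ran most closely with the mean of the tested members, each centred on its own mean, were MXD1, TRIM16, NFIL3, PHYKPL and PARAIL, with Pearson r of 0.993, 0.992, 0.990, 0.989 and 0.989 over the 9 arrays. They were chosen for this likeness out of all tested genes, and the arrays share 3 doses, so r is a description. MXD1, which encodes a MAX-binding repressor, changed by 2.00 ± 0.17 for 1.0 µM against DMSO (limma adjusted p = 5.70e-06) and by 1.03 ± 0.17 for 0.1 µM against DMSO (0.00156). NFIL3, a basic leucine zipper factor, changed by 1.27 ± 0.09 and 0.68 ± 0.09, and TRIM16 by 1.57 ± 0.11 and 0.91 ± 0.11. MXD1, TRIM16, NFIL3 and PARAIL were also called for 1.0 µM against 0.1 µM, by 0.97, 0.66, 0.59 and 0.69.

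DUSP1 differed between the doses by 0.68 ± 0.09 (1.0 µM against 0.1 µM, adjusted p = 0.00556), whereas for DUSP16 and DUSP8 these differences were −0.02 ± 0.13 and −0.03 ± 0.20 (adjusted p = 0.968 each). The contrast between these phosphatase genes was not tested.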
